A study of Mus musculus with 12 samples.

Results

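The effect of human beta-defensin 3 (hBD3) on mouse macrophages without any Toll-like receptor ligand was examined in 6 of the 12 arrays of the series, namely the 3 arrays whose treatment label names hBD3 alone and the 3 whose label names no treatment. The cells were bone marrow-derived macrophages (BMDM) from Balb/c mice, grown from femoral marrow in macrophage colony stimulating factor (M-CSF) and kept overnight without it before treatment for 6 h. The hBD3 arrays are labelled 5 mg/ml, whereas the methods of the study give the peptide in micrograms per ml. The remaining groups, again of 3 arrays each, were cells given 50 ng/ml KLA (Kdo2-lipid A, the core of bacterial lipopolysaccharide, which activates Toll-like receptor 4) and cells given KLA together with hBD3, whose labels state no dose. Every group thus shared the strain, the M-CSF culture, its withdrawal and the time point. Total RNA was hybridised to Illumina MouseWG-6 BeadChips, and each group had 3 biological replicates, from separate mice by the study's account. The mice's age and sex and the chip that carried each array were not given in the sources used here.

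hBD3 is a small cationic peptide of skin and mucosa that kills microbes and also acts on host cells. Proposed contacts include chemokine, Toll-like, melanocortin and purinergic receptors, and positively charged peptides also bind the heparan sulphate chains of syndecans. In resting macrophages, NF-kB dimers are held in the cytoplasm by IkB proteins, and a bacterial ligand releases them to switch on genes for cytokines and chemokines. Most histone genes are transcribed mainly while DNA is replicated.

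The results below turn on the neutrophil attractants Cxcl1 and Cxcl2, which stood high in a single hBD3 array, and on Gpr84, H1f2 and H2bc11, which differed in the same direction in every hBD3 array. Their promoters, from 250 bases before to 50 bases after the transcription start, are shown from RefSeq on the GRCm38.p6 build, each read 5′ to 3′ along its gene. In the first 3, capitals mark matches to the NF-kB consensus on either strand, and in the other two they mark CCAAT, the box bound by factor NF-Y, or ATTGG, which is CCAAT on the opposite strand.
Cxcl1 promoter, chr5:90890995-90891294, plus strand: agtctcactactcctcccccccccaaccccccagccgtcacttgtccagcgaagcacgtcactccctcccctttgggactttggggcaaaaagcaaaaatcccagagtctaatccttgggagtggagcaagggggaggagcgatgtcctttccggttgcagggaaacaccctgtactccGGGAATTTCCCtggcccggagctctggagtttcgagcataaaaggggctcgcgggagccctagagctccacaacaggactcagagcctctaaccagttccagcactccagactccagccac
Cxcl2 promoter, chr5:90903649-90903948, plus strand: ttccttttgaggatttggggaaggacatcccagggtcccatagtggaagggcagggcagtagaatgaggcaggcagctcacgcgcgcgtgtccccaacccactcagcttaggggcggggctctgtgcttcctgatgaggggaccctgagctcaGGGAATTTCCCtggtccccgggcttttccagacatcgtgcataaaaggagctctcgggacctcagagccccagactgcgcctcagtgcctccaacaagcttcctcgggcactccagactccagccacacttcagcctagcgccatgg
Gpr84 promoter, chr15:103310389-103310688, minus strand: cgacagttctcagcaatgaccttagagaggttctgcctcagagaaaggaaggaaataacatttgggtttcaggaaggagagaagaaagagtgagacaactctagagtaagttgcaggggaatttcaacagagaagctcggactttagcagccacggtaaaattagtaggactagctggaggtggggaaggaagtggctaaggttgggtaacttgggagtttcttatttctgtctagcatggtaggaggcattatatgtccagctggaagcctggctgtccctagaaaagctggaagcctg
H1f2 promoter, chr13:23738557-23738856, plus strand: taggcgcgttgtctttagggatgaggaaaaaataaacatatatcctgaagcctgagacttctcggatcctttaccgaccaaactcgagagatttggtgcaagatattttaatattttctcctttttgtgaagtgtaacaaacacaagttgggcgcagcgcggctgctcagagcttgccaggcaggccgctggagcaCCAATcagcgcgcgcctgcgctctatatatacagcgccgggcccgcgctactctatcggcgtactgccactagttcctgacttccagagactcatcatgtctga
H2bc11 promoter, chr13:22042948-22043247, plus strand: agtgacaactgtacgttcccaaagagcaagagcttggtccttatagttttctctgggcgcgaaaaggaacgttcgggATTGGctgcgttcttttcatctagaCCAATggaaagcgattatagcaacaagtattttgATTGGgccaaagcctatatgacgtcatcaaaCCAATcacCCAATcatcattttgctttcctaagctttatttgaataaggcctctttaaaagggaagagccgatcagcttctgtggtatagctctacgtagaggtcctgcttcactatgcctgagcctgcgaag
Cxcl1 and Cxcl2 carried the same run of 11 bases, in which matches on both strands overlapped, and the Gpr84 window held 0 matches. The NF-kB consensus occurred in 8.46% of the 32851 promoters of the table, in 5 of the 17 measured chemokine genes found in it and in 7 of 16 measured cytokine genes. CCAAT occurred in 37.4% of all promoters and in 35 of 42 measured histone genes, once in H1f2 and 5 times in H2bc11. The shares are per promoter, whereas a listed gene counted if any of its promoters matched, so the measures are not the same. A match describes letters in a window and not the binding of a factor.

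All values below are log2 of the signal after quantile normalization by the authors, and a gene was read from its brightest probe. Between 14353 and 15629 of 45281 probes were detected in the 6 arrays (detection p under 0.01), and 8011 of 19057 genes counted as detected, with every array of the hBD3 or of the untreated group passing. Macrophage genes were bright in every array: Csf1r, the M-CSF receptor, lay between 12.53 and 12.72, and Adgre1, a macrophage surface receptor, between 10.86 and 11.79. Csf1r was slightly lower in every hBD3 array (-0.17 ± 0.13, SE). A dimmer Csf1r probe read 11.33, 11.46 and 10.25 in untreated cells and 10.70, 10.70 and 7.99 with hBD3 (-1.21 ± 0.88, limma adjusted p = 0.828). Among markers of other cell types, those of stromal cells stood out, and their mean over 19 genes reached 8.34 in hBD3 replicate 3. It was 6.68 in hBD3 replicate 1, 6.25 in replicate 2 and between 6.19 and 6.47 without treatment. Lum, Pdgfra, Postn and Thy1, fibroblast markers, were undetected in all 6 arrays. The mean of 8 endothelial markers was 7.00 in hBD3 replicate 3 and 6.24 to 6.38 in the others, with Kdr and Tek undetected. Neutrophil markers averaged 6.19 to 6.30 (11 of 14 undetected in all 6 arrays), T and NK cell markers 6.2 to 6.26 (9 of 10 undetected) and osteoclast markers 7.12 to 7.26 (4 of 8 undetected). In bulk RNA, fewer cells of a type and less RNA per cell cannot be told apart.

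Little separated hBD3-treated from untreated macrophages. A linear model fitted to all 12 arrays with limma called 2 of 45281 probes at an adjusted p under 0.05 (0.00442%), 1 higher (0.00221%) and 1 lower (0.00221%), while 3309 probes (7.31%) had an unadjusted p under 0.05, 1699 of them higher (3.75%) and 1610 lower (3.56%). Read from its brightest probe, 1 of 19057 genes was called (0.00525%). At an unadjusted p under 0.05, 1063 of these genes were higher and 783 lower. Among the 8011 detected genes 813 were higher and 606 lower. With the replicate number as a block the counts were 15 (0.0331%, of which 11 higher, 0.0243%, and 4 lower, 0.00883%) over the 12 arrays and 23 (0.0508%, of which 6 higher, 0.0133%, and 17 lower, 0.0375%) over the 6 arrays, with 6 probes called in both. That block was chosen from the likeness of these same arrays. Without a block and without untreated replicate 3 the count was 0, with 3764 probes at an unadjusted p under 0.05. Without each of the other 5 arrays in turn it was 1 or 2.

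Differences were also small in size. Over the 8011 detected genes the median absolute difference was 0.15, with a median standard error (SE) of 0.13, and the 95% interval of the difference lay within 2-fold in both directions for 7545 genes (94.2%). KLA against the same untreated arrays gave a median absolute difference of 0.40 and intervals within 2-fold for 5631 genes (70.3%). The hBD3 mean lay more than 2-fold above the untreated mean in 28 genes (0.35%) and below it in 9 (0.112%), and the KLA mean in 524 (6.54%) and 652 (8.14%). Of the 28 genes, 22 were more than 2-fold above all other 5 arrays in hBD3 replicate 3 alone and 2, Cxcl1 and Cxcl2, in hBD3 replicate 1 alone. The counts depended on single arrays: without hBD3 replicate 3 they were 10 and 5, without hBD3 replicate 2 they were 43 and 24, and without hBD3 replicate 1 they were 34 and 31. Leaving out untreated replicate 1 gave 26 and 1, and leaving out untreated replicate 3 gave 33 and 40.

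**Figure D1:**
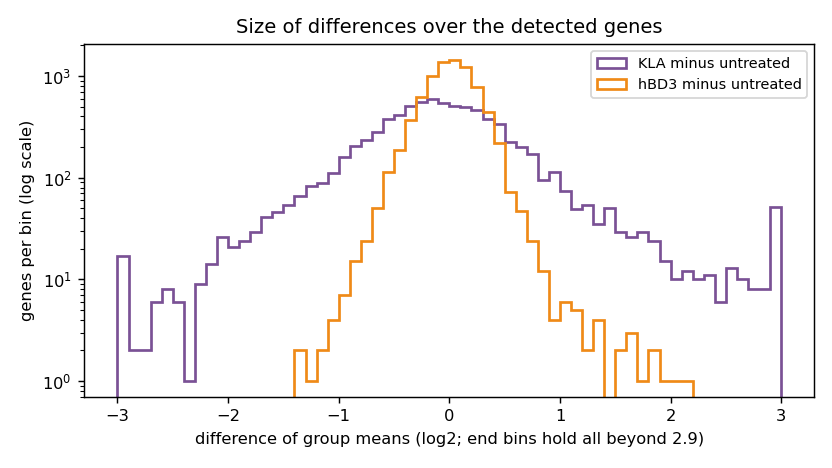
Histogram of the difference of group means (log2, x axis) over the 8011 detected genes, with the number of genes per bin on a log scale (y axis), for hBD3 minus untreated and KLA minus untreated. Both differences use the same 3 untreated arrays. hBD3 differences cluster near 0 and pass 2-fold in 28 and 9 genes, against 524 and 652 with KLA.

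Gpr84, a G protein-coupled receptor for medium-chain fatty acids that sits on myeloid cells, fell with hBD3. Its log2 signal was 10.65, 10.49 and 10.58 in untreated replicates 1 to 3 and 9.64, 9.24 and 9.30 in the corresponding hBD3 arrays. Every hBD3 array was below every untreated array by at least 0.85, and the group means differed by -1.18 ± 0.10 (SE, n = 3 per group; 2.27-fold lower, limma adjusted p = 0.00540). A second Gpr84 probe read 9.54, 9.74 and 9.71 in untreated cells and 8.98, 8.50 and 8.77 with hBD3, a difference of -0.91 ± 0.13 (adjusted p = 0.119, 0.0414 with the replicate block over 12 arrays and 0.0639 with that over 6). The call was lost without untreated replicate 3 (adjusted p = 0.0603), in the fit of the 6 arrays alone (0.208), with median centring (0.30) and without both arrays numbered 3 (0.143). KLA moved Gpr84 the other way, by 2.5 (adjusted p = 3.80e-08). KLA plus hBD3 stood below KLA alone by -0.49 (adjusted p = 0.0120). Those group means come from other arrays, but the spread comes from the same fit over all 12 arrays.

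The probe called higher belonged to H1f2, a linker histone that binds DNA between nucleosomes. It is named because it was the only probe called higher, and it is not the brightest of that gene. It read 10.38, 10.16 and 10.21 in untreated cells and 11.06, 11.19 and 11.15 with hBD3, so that the groups were well separated. The difference was 0.89 ± 0.09 (SE, n = 3 per group; 1.85-fold, adjusted p = 0.0124), and it was called in 8 of 18 alternative settings (adjusted p from 0.0107 to 0.674). The brighter H1f2 probe gave 11.91, 11.02 and 11.26 in untreated cells against 12.03, 11.96 and 11.91 with hBD3, where untreated replicate 1 came close to the hBD3 arrays (0.57 ± 0.18, adjusted p = 0.462). With KLA the called probe fell by 1.23 (adjusted p = 1.97e-06). KLA plus hBD3 lay 1.10 above KLA alone (adjusted p = 1.93e-05), again with group means from other arrays but with the shared spread.

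The list of replication-dependent histone genes, which package newly made DNA, leaned the same way without reaching the threshold. Of 46 measured, 30 were detected. H1f2 belongs to the 46, and its brightest probe is included in the counts of higher and separated genes below. Over all 46, 41 had a higher mean with hBD3. The hBD3 arrays lay entirely above the untreated arrays in 15 and entirely below in 0, against 7.76% and 5.8% of all genes. By the adjusted p, 0 were called at their brightest probe. At an unadjusted p under 0.05, 14 were higher and 0 lower, against 1063 and 783 of 19057 genes. The median difference was 0.20, against 0.01 over all genes, and was 0.34, 0.18 and 0.19 in hBD3 replicates 1, 2 and 3, so the lean did not rest on a single array. With median centring, which put the median of all detected genes at -0.23, 29 of the 46 were higher and the list median was 0.07.

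Of the 15 separated genes, 8 encode core histone H2B, of which 11 genes were measured, with differences of 0.70 to 1.06. H2bc11 was 8.40, 9.23 and 8.81 in untreated cells and 9.82, 10.13 and 9.68 with hBD3 (1.06 ± 0.20, adjusted p = 0.155, with 0.0462 and 0.0423 under the replicate block over 12 and 6 arrays). H2bc7 was 8.96, 9.64 and 9.14 against 10.33, 10.40 and 9.92 (0.97 ± 0.20, adjusted p = 0.187, with 0.0414 and 0.0550 under the blocks). In both genes untreated replicate 1 was lowest and hBD3 replicate 2 highest. H2bc9 stood at 0.85 ± 0.17 (adjusted p = 0.177, with 0.0459 and 0.0637 under the blocks) and H2bc4 at 0.74 ± 0.13 (adjusted p = 0.15). Genes of this family are nearly identical in sequence, so that a probe may read several of them and the 8 genes are not 8 independent readings. KLA arrays were lower than hBD3 arrays in 11 of the 46 histone genes, H2bc4 among them (-1.29, adjusted p = 2.76e-05), and higher in 0, where 12.3% of all genes were called lower and 9.7% higher.

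Beyond these, the 12 genes with the smallest p in each direction were examined. Apart from Gpr84 they had adjusted p between 0.101 and 0.145, and in each the hBD3 arrays lay outside the untreated range, as the ranking favours. On the higher side, Mxd4, which competes with Myc for their partner Max, was 8.64, 9.31 and 9.29 in untreated cells and 10.14, 10.02 and 10.07 with hBD3 (0.99 ± 0.17, adjusted p = 0.145). Tcf4, a basic helix-loop-helix factor, stood at 0.60 ± 0.10 and Anp32a, a nuclear acidic protein, at 0.56 ± 0.09. With the replicate block Rhobtb1 (0.80 ± 0.13) had an adjusted p of 0.0414 over 12 arrays and 0.0416 over 6, and Anp32a 0.0414 over 12 but 0.0686 over 6. Metabolic enzymes were Naprt, which starts NAD synthesis from nicotinic acid (0.49), Pfkfb4, which sets fructose 2,6-bisphosphate (0.47), and Ephx1, an epoxide hydrolase (0.48). Gpr34, a lysophosphatidylserine receptor of microglia and other macrophages, was undetected in all 3 untreated arrays and detected in all 3 hBD3 arrays, at least 1.31-fold higher (adjusted p = 0.145). Prkd2, a protein kinase, the adhesion molecule Jaml, the organic anion carrier Slco2b1 and Fam214a stood at 0.61, 0.72, 0.48 and 0.82.

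On the lower side, Sdc1, a heparan sulphate proteoglycan, was 8.94, 8.76 and 8.74 in untreated cells and 7.81, 8.0 and 7.69 with hBD3 (-0.98 ± 0.16, adjusted p = 0.141). Marcksl1, an actin-binding substrate of protein kinase C, was 9.91, 9.87 and 9.59 against 8.93, 8.72 and 8.79 (-0.97 ± 0.15, adjusted p = 0.141). For both, every hBD3 array was at least 0.66 below the lowest untreated array. With the replicate block over the 6 arrays both were called lower (adjusted p = 0.04), and with that over 12 neither was (0.0622 for both). The small GTPase Rhog (-0.63), the Rap activator Rapgef5 (-0.70, adjusted p = 0.101), the actin-binding scaffold Ppp1r9b (-0.75), the fibronectin receptor chain Itga5 (-0.76) and the receptor-like Dcbld2 (-0.40) were among the others. The iron transporter Slc11a2 (-0.87), AMP deaminase Ampd3 (-0.67), the ganglioside synthase St3gal5 (-0.78) and the phosphodiesterase Gdpd1 (-0.55) made up the rest.

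Among probes that passed only with the replicate block were 3 further genes. Lbh, a transcriptional cofactor, was 8.22, 8.09 and 8.6 in untreated cells and 9.18, 8.99 and 9.53 with hBD3 (0.93 ± 0.18, adjusted p = 0.160, with 0.0414 and 0.0364 under the blocks over 12 and 6 arrays). Slco4a1, an organic anion carrier, was 11.07, 11.05 and 10.58 against 10.29, 10.05 and 9.79 (-0.85 ± 0.16, adjusted p = 0.15, with 0.0414 and 0.04 under the blocks). Clec4e encodes Mincle, a receptor for mycobacterial glycolipid, and was lower with hBD3 in each same-numbered pair while the groups overlapped. The probe that passed is not the brightest of the gene. Its signal was 11.23, 10.06 and 9.43 in untreated cells and 9.59, 8.81 and 7.87 with hBD3 (-1.48 ± 0.45, adjusted p = 0.446, 0.0981 with the block over 12 arrays and 0.0135 with that over 6). The brightest Clec4e probe read 10.71, 10.35 and 9.72 in untreated cells and 9.97, 9.51 and 8.16 with hBD3 (-1.05, adjusted p = 0.581).

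**Figure D2:**
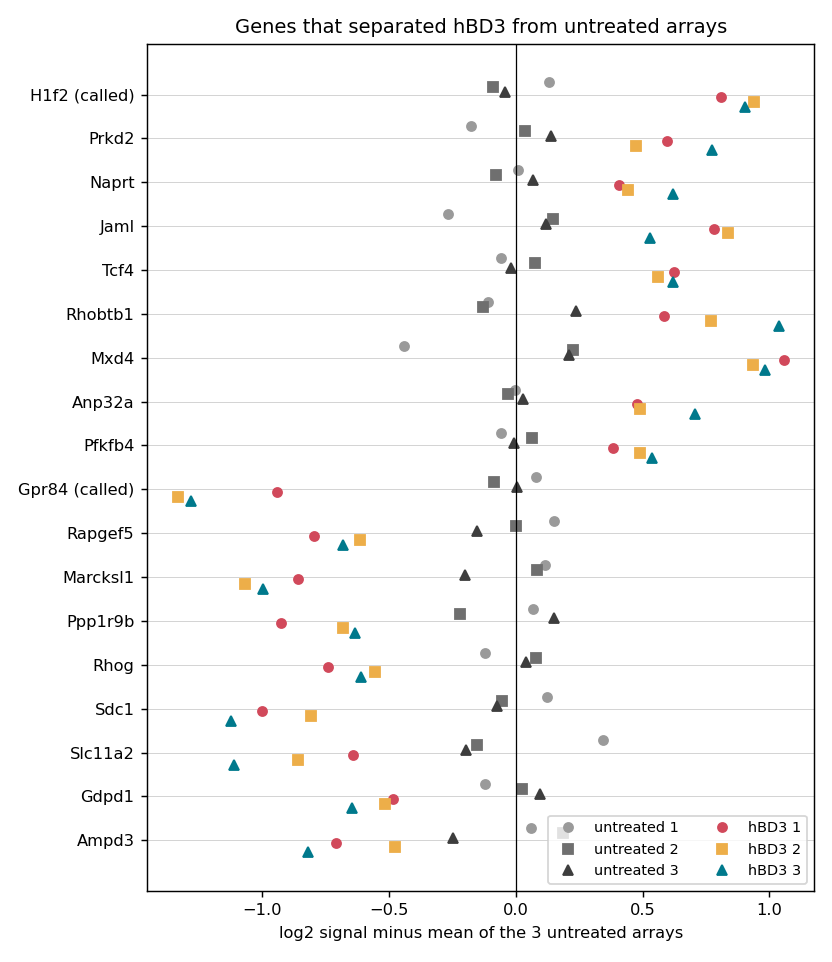
Log2 signal minus the mean of the 3 untreated arrays (x axis) for the 2 genes with a called probe and the 8 others in each direction with the smallest p (y axis), 1 symbol per array. The hBD3 symbols lie to the right of all untreated symbols for the upper 9 genes and to the left for the lower 9; Gpr84 at -1.18 and the called H1f2 probe at 0.89 passed the threshold.

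The same 24 genes can be read in KLA plus hBD3 against KLA, whose group means share no array with the comparison without KLA. Both comparisons take their spread from the same fit over all 12 arrays. Ranking by p favoured genes of small spread, so the shares over all genes are not a matched background for these 24. Of the 12 higher genes 6 rose there and 1 fell (limma adjusted p under 0.05), against 5.84% and 4.98% of all genes. Mxd4 rose by 1.36, Pfkfb4 by 1.27, Naprt by 0.87 and Fam214a by 0.87, and Anp32a was the gene that fell, by 0.47. Of the 12 lower genes 5 fell and 3 rose. Itga5 fell by 1.16, Ampd3 by 0.96 and Dcbld2 by 0.59, whereas Rapgef5, Sdc1 and Gdpd1 rose by 0.94, 0.81 and 0.59. The difference between the effects of hBD3 with and without KLA was itself called for the latter 3 (5.49% of all genes had such a call; interaction 1.64, 1.78 and 1.13, adjusted p = 9.41e-05, 0.00102 and 0.000676). For 2 of the KLA arrays, replicates 2 and 3, the title includes HBD3 although the treatment label is KLA alone. The headings of the signal columns before normalization that matched the KLA arrays name lps, read here as KLA, without hBD3.

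The arrays of the hBD3 group differed among themselves. Counting genes detected in at least 1 of the 6 arrays (9681), 8 were more than 2-fold above all 5 other arrays in hBD3 replicate 1, 0 in replicate 2 and 157 in replicate 3. The same count was 6, 0 and 0 in the untreated arrays. Genes more than 2-fold below the others numbered 1, 0 and 32 in the hBD3 arrays and 5, 0 and 2 in the untreated arrays.

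**Figure D3:**
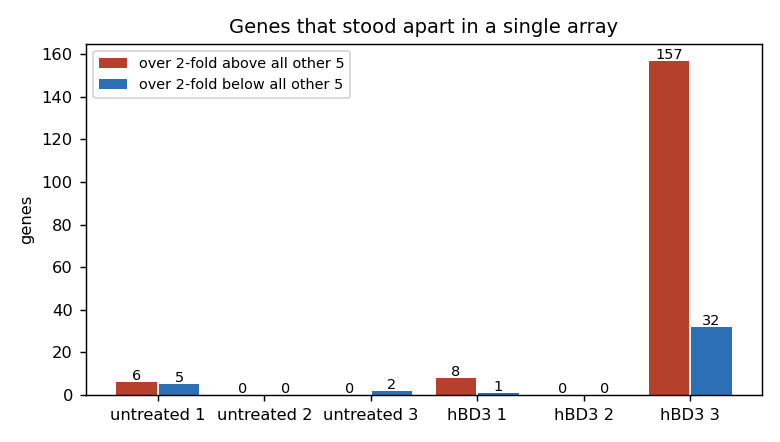
Number of genes (y axis) more than 2-fold above or below all 5 other arrays, for each untreated and hBD3 array (x axis), among 9681 genes detected in at least 1 of them. hBD3 replicate 3 held 157 and 32, hBD3 replicate 1 held 8 and 1, and every other array held 6 or fewer each way.

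The 8 genes high in hBD3 replicate 1 were all cytokines or chemokines: Il1a, Il1b, Il12a, Tnf, Cxcl1, Cxcl2, Ccl3 and Ccl4. Cxcl1 was 11.70 in that array, 8.85 and 7.42 in hBD3 replicates 2 and 3, and 7.47, 7.89 and 7.84 in untreated cells (1.59 ± 0.75, adjusted p = 0.697). Cxcl2 was 10.49 against 8.05 and 6.35 with hBD3 and 6.93, 7.55 and 6.77 without (1.22 ± 0.73, adjusted p = 0.772). For both genes replicate 2 also exceeded all untreated arrays, while replicate 3 was below all of them, so that the groups overlapped. Il1a, an alarm cytokine undetected in all untreated arrays (5.95 to 5.99), was 9.26, 6.23 and 5.99 with hBD3 and was detected in 2 of the 3. Tnf, the archetypal macrophage cytokine, was 11.12, 9.31 and 8.21 with hBD3 against 9.43, 9.46 and 9.25 in untreated cells (0.17 ± 0.50, adjusted p = 0.970), and Il1b was 11.52, 9.98 and 8.76 against 9.29, 9.65 and 9.60 (0.57 ± 0.48, adjusted p = 0.852). For Tnf and Il1b the hBD3 arrays thus lay on both sides of the untreated range. Il12a, a subunit of interleukin-12, was 7.75 in replicate 1 and 5.96 and 5.79 in the others, with 5.69 to 5.95 in untreated cells. The co-stimulatory receptor Cd40 followed the same order (10.49, 8.32 and 7.85, against 9.60, 8.74 and 8.58).

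Of 23 measured inflammatory cytokines, 10 were detected. Across the whole list the median difference was 0.17, made of 0.47, 0.02 and -0.06 in hBD3 replicates 1, 2 and 3. It was -0.043 without replicate 1 and 0.31 with detected probes only. None was called (0 higher and 0 lower). At an unadjusted p under 0.05, 2 were higher and 2 lower, against 1063 and 783 of 19057 genes. The hBD3 arrays lay entirely above the untreated arrays for 3 and entirely below for 3, as for 7.76% and 5.8% of all genes. The 24 chemokines, of which 13 were detected, had a median of 0.11 (0.14, 0.05 and -0.04 by array) with 0 called. At an unadjusted p under 0.05, 1 was higher and 1 lower, against the same 1063 and 783 genes. The cytokine with the smallest p, Osm, did not follow replicate 1. Oncostatin M, its product, belongs to the interleukin-6 family. Its signal was 7.20, 7.22 and 7.36 in untreated cells and 7.76, 7.76 and 7.64 with hBD3, higher in every hBD3 array (0.46 ± 0.08, adjusted p = 0.145). Tgfb1, a cytokine that restrains macrophages, was 11.94, 11.71 and 11.69 against 11.17, 11.24 and 10.81, lower in every hBD3 array (-0.70 ± 0.21, adjusted p = 0.443). Among the other genes the study names, Il6 was 6.34, 5.92 and 5.60 with hBD3 against 5.71 to 5.94. Most of these values lay below the lowest detected signal of the arrays (6.03 to 6.12). Ifnb1 was undetected in all 6 arrays, and Ccl5, Irak2 and Myd88 differed by -0.35, -0.11 and -0.16 with overlapping groups.

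Regulators of NF-kB did not share the order of the cytokines. Of 18 measured, 7 had all hBD3 arrays below the untreated arrays and 1 above, against 5.8% and 7.76% of all genes and 8.06% and 11.2% of detected genes, and the median was -0.12, -0.12 and -0.11 in the 3 hBD3 arrays. None passed the threshold (0 called). At an unadjusted p under 0.05, 7 were lower and 2 higher. So were 783 and 1063 of 19057 genes, and 606 and 813 of 8011 detected genes. Nfkbie, an IkB protein, was 9.56, 8.84 and 9.30 in untreated cells and 7.90, 8.23 and 8.64 with hBD3 (-0.98 ± 0.24, adjusted p = 0.324). Its lowest value fell in replicate 1, the array with the highest Tnf. Relb, an NF-kB subunit, was also lowest there (9.59, 9.16 and 9.36 against 8.31, 8.81 and 9.0; -0.66 ± 0.21, adjusted p = 0.491). The adaptor Traf1 (-0.53) and the A20 partner Tnip1 (-0.51) were lower in every hBD3 array. The members named here are among the lower ones. Over the 18, 13 had a lower mean with hBD3 and 5 a higher one, by up to 0.49.

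**Figure D4:**
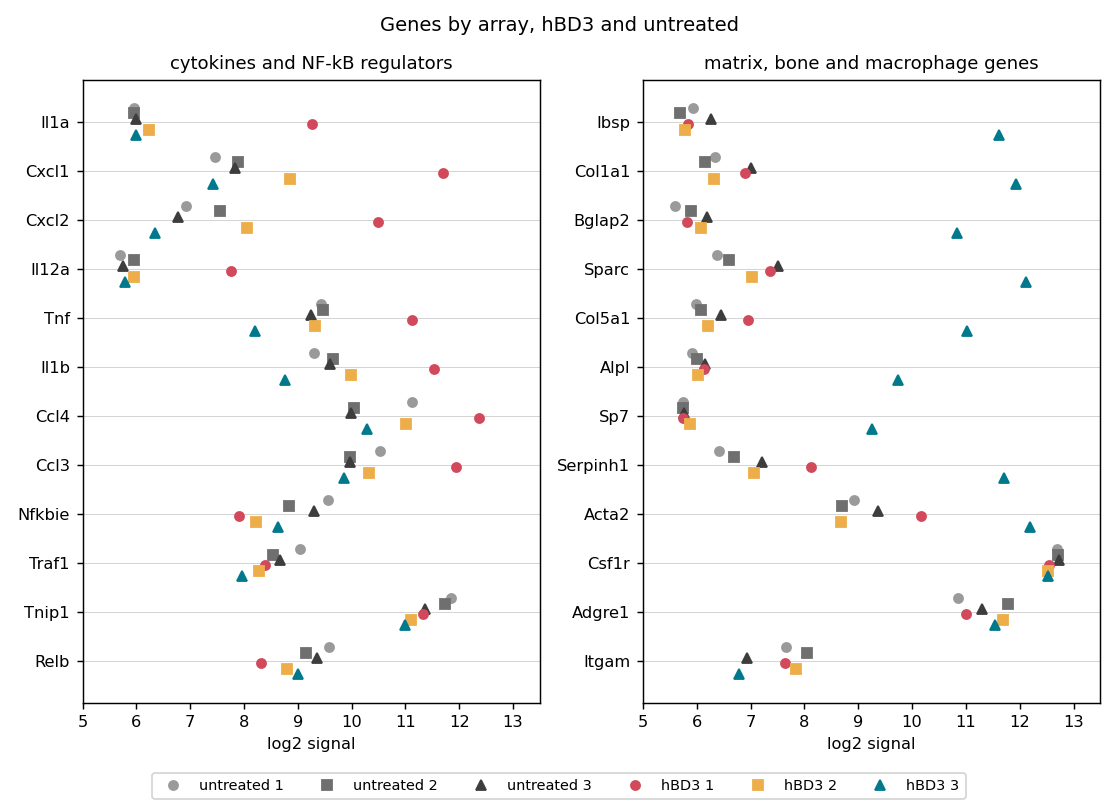
Log2 signal (x axis) in each untreated and hBD3 array for cytokine and NF-kB regulator genes (left) and for matrix, bone and macrophage genes (right). hBD3 replicate 1 lies to the right for Il1a (9.26) to Ccl3 but not for Nfkbie, Traf1, Tnip1 and Relb, which were drawn from the lower members of their list. hBD3 replicate 3 lies to the right for matrix and bone genes (Ibsp 11.62) but not for Csf1r, Adgre1 and Itgam.

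Genes of bone and matrix were among the 157 that stood high in hBD3 replicate 3. Ibsp, bone sialoprotein, was 11.62 there and between 5.68 and 6.26 in the other 5 arrays. Col1a1, the main collagen of bone, was 11.92 against 6.15 to 7.00, and Bglap2, an osteocalcin gene, 10.84 against 5.60 to 6.19. All 3 genes were high in this array alone. Sp7, the transcription factor of osteoblasts, was 9.25 against 5.74 to 5.88, and Alpl, bone alkaline phosphatase, 9.74 against 5.92 to 6.15. Sp7 and Bglap were undetected in untreated cells and detected in 1 of 3 hBD3 arrays. Of the stromal marker list 9 members were among the 157 genes, as were the endothelial markers Cdh5 (7.05 against 5.64 to 5.82), Emcn and Egfl7, the cytokine genes Vegfa and Inhba, the chemokine and stromal marker Cxcl12, and 0 of the macrophage list. Smaller shifts of the same kind occurred in replicate 1, where Serpinh1, a collagen chaperone, was 8.13 and Acta2, smooth muscle actin, 10.16, above all untreated arrays (6.41 to 7.22 and 8.70 to 9.36). The median difference of the 19 stromal markers, of which 9 were detected, was 0.48 with 0 called. It was -0.07 with hBD3 replicate 2 as the only hBD3 array. At an unadjusted p under 0.05, 4 were higher and 0 lower, against 1063 and 783 of 19057 genes. The part of other cell types in these values was not tested.

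The 32 genes low in hBD3 replicate 3 were of another kind, and many of them were low in other arrays with that number. Eef2, a translation elongation factor used by every cell, was 7.4 there, 11.11 in hBD3 replicate 1 and 10.74 in replicate 2. In untreated cells it was 11.25, 11.60 and 9.63. Of the 32, 26 were also more than 2-fold below the mean of replicates 1 and 2 in KLA replicate 3, 14 in untreated replicate 3 and 0 in replicate 3 of KLA plus hBD3. Of the 157 high genes, 0 were high by that measure in KLA replicate 3 and 1 in untreated replicate 3. Where a gene had several detected probes, 251 genes were low in hBD3 replicate 3 at 1 probe and 203 of them (80.9%) were near the other arrays at another probe, and 87 of 102 were so in untreated replicate 3. Eef2 was not among them, since its other probes read 6.10 and 6.94 in hBD3 replicate 3, against 9.20 to 10.41 in replicates 1 and 2. Sema4d (7.16), Pltp (6.90), the myeloid factor Cebpa (6.03) and Tnfrsf1a, the receptor of Tnf (6.64), were at their lowest in hBD3 replicate 3 as well, and their group differences of -1.36, -0.73, -0.69 and -0.89 include that value.

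Among 17 measured genes for proposed hBD3 receptors and partners, 10 were detected and 0 were called. At an unadjusted p under 0.05, 1 was higher and 4 lower, against 1063 and 783 of 19057 genes. Without overlap, 4 lay higher and 3 lower, where 7.76% and 5.8% of all genes did. The lower ones were Sdc1, Tlr2 and Fpr2. Tlr2, a receptor for bacterial lipoproteins, was 12.78, 12.61 and 12.63 in untreated cells and 12.13, 12.27 and 11.99 with hBD3 (-0.54 ± 0.10, adjusted p = 0.15). Fpr2, a formyl peptide receptor, was 11.02, 11.25 and 11.41 against 10.48, 10.76 and 10.32 (-0.71 ± 0.16, adjusted p = 0.259). The higher ones were Egfr, the epidermal growth factor receptor (0.43), P2rx7, an ATP-gated channel (0.16), Mc1r, a melanocortin receptor undetected in all 6 arrays (0.16), and the co-stimulatory ligand Cd86 (7.36, 7.54 and 7.53 against 8.08, 8.08 and 7.90; 0.55 ± 0.17, adjusted p = 0.480). Cd86 is counted in this list, although the study treats it as a response and not as a receptor of hBD3. Tlr4, the KLA receptor, and Cxcr4 overlapped between groups (-0.17 and -0.14), as did Tlr1 (-0.26) and Sdc4 (-0.29). In the wider Toll-like receptor pathway of 32 genes, 7 lay lower and 3 higher without overlap (5.8% and 7.76% of all genes, 8.06% and 11.2% of detected genes). The median was -0.12 and differed between hBD3 replicates 1, 2 and 3 (0.025, -0.063 and -0.20), with Cd14, the co-receptor that hands over lipid A, at -0.33 ± 0.11.

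Genes of stress responses and organelles were next. Of 16 NRF2 and metallothionein genes, which answer oxidants and metals, 14 were detected. In 7 of the 16 all hBD3 arrays were lower and in 1 higher. So were 5.8% and 7.76% of all genes, and 8.06% and 11.2% of detected genes. By the adjusted p 0 were called. At an unadjusted p under 0.05, 6 were lower and 1 higher, against 783 and 1063 of 19057 genes. Slc7a11, the cystine importer, was 9.25, 8.85 and 8.91 in untreated cells and 8.42, 8.35 and 8.10 with hBD3 (-0.71 ± 0.13, adjusted p = 0.15). Hmox1, haem oxygenase, was 10.12, 10.23 and 10.29 against 9.64, 9.73 and 9.88 (-0.46 ± 0.11, adjusted p = 0.295). Both were lower in each hBD3 array than in any untreated array. Among 29 lysosome genes 7 lay lower and 1 higher, against 5.8% and 7.76% of all genes and 8.06% and 11.2% of detected genes. They included the lysosomal transcription factors Mitf (-0.55 ± 0.12, adjusted p = 0.196) and Tfeb (-0.53 ± 0.14, adjusted p = 0.353). The guanylate-binding protein Gbp2, an interferon target, was 12.82, 12.24 and 12.26 against 11.88, 11.61 and 11.39 (-0.81 ± 0.16, adjusted p = 0.181, with 0.0569 and 0.0423 under the blocks over 12 and 6 arrays). Of 38 interferon-stimulated genes, 2 lay lower and 2 higher without overlap (10.5%, against 13.6% of all genes). Glycolysis, oxidative phosphorylation, cell cycle, heat shock and ribosomal protein lists had medians between -0.07 and 0.10 with 0 called, and each had at most 2 genes in either direction at an unadjusted p under 0.05.

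**Figure D5:**
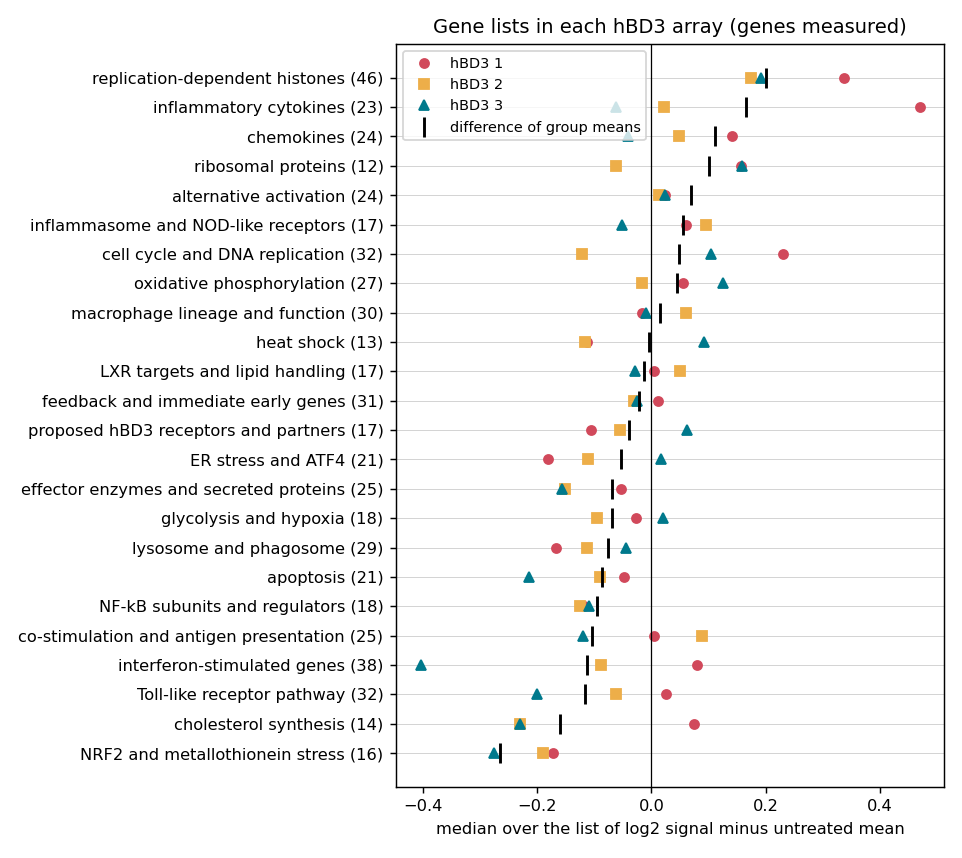
Median over each gene list of the log2 signal minus the untreated mean (x axis) in hBD3 replicates 1, 2 and 3, with the median difference of group means as a vertical bar; the number of genes measured is in parentheses on the y axis. Histone genes lie above 0 in all 3 arrays (0.34, 0.18 and 0.19), cytokines in replicates 1 and 2 (0.47 and 0.02), and the NRF2 list below 0 in all 3 (-0.17, -0.19 and -0.28).

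To place hBD3 beside a Toll-like receptor 4 ligand, KLA arrays were compared with hBD3 arrays directly. Limma called 6930 of 45281 probes (15.3%), 3195 higher (7.06%) and 3735 lower (8.25%) with KLA, and 4200 of 19057 genes (22%), 1849 higher (9.7%) and 2351 lower (12.3%). Of the inflammatory cytokines 19 of 23 were higher with KLA than with hBD3 and 0 lower, as were 17 of 24 chemokines with 1 lower, and 16 of 18 NF-kB regulators with 0 lower. The cytokine list had a median of 2.60 for KLA against untreated cells and of 0.17 for hBD3, both measured from the same untreated arrays. Even in hBD3 replicate 1, the array with the highest cytokine values, Cxcl1 (11.70) and Tnf (11.12) stayed below the KLA means, which lay 6.65 and 5.04 above the untreated means of 7.73 and 9.38. Gpr84 was higher with KLA than with hBD3 by 3.69 (adjusted p = 7.19e-09) and the called H1f2 probe lower by 2.11 (adjusted p = 3.32e-08).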

How the data were processed

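The 12 arrays fell into 4 groups of 3, and the 6 arrays of hBD3 and untreated cells carried the comparison. Per the file headers and the methods, BeadStudio summarized the bead signals, and the deposited signal intensity values on a linear scale were quantile normalized by the authors with limma (versions not given in the sources used here). The deposited detection p-value of each probe came with the signals before normalization, whose columns could be tied to a group but not to a replicate. After quantile normalization 12 of 12 of those columns equalled 1 array of their group within 0.1% at every probe.

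The log2 of the normalized signal was fitted with limma 3.58.1 in R 4.3.3 as group means over all 12 arrays (8 residual and 3.66 prior degrees of freedom), with two-sided tests adjusted by Benjamini-Hochberg over 45281 probes at 0.05. A gene was read from its brightest probe among those naming it alone (34885 probes, 19057 genes, 18 probes naming several genes and 10378 none). A gene was detected where all 3 arrays of hBD3 or of untreated cells had a detection p under 0.01. Named genes were those called, the 12 with the smallest p each way, up to 4 members of each list with the smallest p, detected cytokines, chemokines, proposed receptors and stromal markers, the genes farthest out in 1 hBD3 array, and those the study names. Probes called with the replicate block, and the H1f2 probe, were added after their values were seen. The members and gene lists were chosen with earlier results of these data known.

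Same-numbered untreated and hBD3 arrays deviated together from their group means (r = 0.42, 0.27 and 0.68 across 13899 detected probes), against -0.62 to 0.25 for unlike numbers, and the rule that every pair exceed 0.1 was met although pair 2 stood little above the unlike pairs. Unlike numbers 1 and 2 gave 0.25 and 0.23, so the values set number 3 apart more clearly than 1 from 2. The numbers were nevertheless taken to pair the arrays, and a block was fitted as an alternative. It was chosen from these same data, so adjusted p-values under it are not separate evidence of an effect. The other alternatives were the samples fitted, median centring, neqc, a detection filter, an offset of 50, array weights, an intensity trend and leaving out arrays. The code was tested on simulated data. The study describes the replicates as separate mice, and their number limits the precision. Promoters were matched to genes by symbol.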

Additional observations from a re-analysis of the deposited data

Results flagged for a closer look

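The effect of hBD3 differed with and without KLA for 25 of the named genes, by the interaction term of the limma fit over all 12 arrays (1047 of 19057 genes called, 5.49%). Each value is the log2 difference between KLA plus hBD3 and KLA, minus that between hBD3 and untreated. Groups of 3 arrays were too small for a test of single outlying arrays.

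Most cytokine and chemokine genes in this set had negative values, with a lower signal in KLA plus hBD3 than in KLA. Their differences between hBD3 and untreated cells ranged from -0.28 for Cxcl9 to 0.75 for Inhba. Il12a had -4.74 (adjusted p = 0.000758), Inhba -3.22, Il6 -3.07, Il18 -2.50, Osm -2.37, Pf4 -1.97, Ebi3 -1.62, Ccl7 -1.60, Cxcl9 -1.46 and Ifnb1 -1.43. Osm was 0.46 without KLA and -1.91 with it. Tgfb1 had 1.35. Cd86 (-1.57) and Irak2 (-0.57) were also negative, while Tlr2 (1.07) and Cxcr4 (2.0) were positive.

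Among the genes with the smallest p without KLA, Anp32a had -1.03, Rhobtb1 -0.76 and Tcf4 -0.76. Gpr84 had 0.69 (adjusted p = 0.0244), lower with hBD3 in both settings. Pfkfb4 had 0.80, higher in both. Rhog (0.87), Ppp1r9b (0.97), Gdpd1 (1.13), Rapgef5 (1.64) and Sdc1 (1.78) were lower with hBD3 alone and had positive differences in the presence of KLA.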

How the results depend on the processing

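The count of 2 called probes was 0 with the 6 arrays alone (2962 at an unadjusted p under 0.05), with median centring (5034) and without both arrays numbered 3 (3065), and 1 with an intensity trend. With the replicate block it was 15 and 23, and leaving out each array in turn gave 0 to 2. Without hBD3 replicates 1 and 3 together, an alternative chosen after seeing the data, it was 1, KLA against hBD3 gave 3831 probes, the interaction 469 and the stromal median -0.072. The interaction gave 425 probes with median centring and 1027 with an intensity trend. With median centring the medians were 0.024 for cytokines, -0.031 for chemokines, -0.20 for macrophage genes and 0.070 for histones, and with detected probes only they were 0.31 for cytokines, 0.32 for histones and 1.34 for stromal markers. Neqc gave a stromal median of 0.86. Leaving out each array in turn gave a cytokine median of -0.043 to 0.24, a macrophage median of -0.052 to 0.057 and a stromal median of 0.11 to 0.66. The cause was not tested. Of 3356 values of 187 named genes under alternatives, 3339 kept their direction and side of the threshold, 13 newly passed it, 4 (all Gpr84) lost it and 0 changed sign while called. With either block 32 probes passed, of 27 genes and 3 probes without a gene name. Among the named genes not given with it in the report were Slc11a2 (adjusted p = 0.04 over 6 arrays) and Rhog (0.0462 over 12). The chip as a block was not run, since the chip of each array was not given in the sources used here. At most 34.5% of probes were detected, and below that level differences cannot be read.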
